A study of Mus musculus with 17 samples.

Results

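Among the 26029 genes counted in the first mouse model of this study, 23 protein-coding genes were silent in every preleukaemic library and expressed in every FANCA-null leukaemic library. Expression was measured by RNA-seq and is given as CPM, the count of a gene per 1000000 counts of its library. A gene was taken when its CPM was at most 0.1 in all 7 preleukaemic libraries and at least 1 in all 3 leukaemic libraries. 28 genes met both limits, and 5 of them were set aside because the rule leaves out those genes or their families. Because the values of all 10 libraries chose the genes, their levels in this model are given as a description and no test was run on them.

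All cells were erythroid blasts, immature red cell precursors taken from mice that carry a Spi1 transgene (TgSpi1), kept in culture with erythropoietin (EPO) and diluted 2 days before RNA extraction. Model 1, on the DBA2JxFVB/N background, held 4 preleukaemic cultures with intact Fanca (TgSpi1FA+/+, mice preleukemic_445, preleukemic_479, preleukemic_451 and preleukemic_138, named as in their sample titles), 3 preleukaemic cultures without Fanca (TgSpi1FA-/-, preleukemic_77, preleukemic_224 and preleukemic_40) and 3 leukaemic cultures without Fanca (leukemic_26, leukemic_28 and leukemic_39). Model 2, on the DBA2J background, held 4 preleukaemic cultures (preleukemic_633, preleukemic_663, preleukemic_812 and preleukemic_837) and 3 leukaemic cultures (leukemic_601, leukemic_606 and leukemic_921), all TgSpi1 with intact Fanca, in which leukaemia arose after serial blood transfusion. Model 1 had no leukaemic culture with intact Fanca, so leukaemia as such and leukaemia without Fanca cannot be told apart within it. Strain and library protocol (400 ng of RNA fragmented for 8 min in model 1, 300 ng for 2 min in model 2) cannot be told apart from the model. The driver mutation also differed in part. The paper describes the leukaemic cells of model 2 as carrying activating Kit mutations, and reports Kit in the mouse of leukemic_26 but Nras in those of leukemic_28 and leukemic_39. The source name of preleukemic_77, preleukemic_224 and preleukemic_40 called them leukaemic while their titles and cell type called them preleukaemic, and the latter was used. Each culture came from 1 mouse, and in bulk RNA a gene expressed in few cells cannot be told apart from one expressed weakly in all.

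FANCA is a subunit of the Fanconi anaemia core complex, which acts in the repair of DNA interstrand crosslinks and in the protection of stalled replication forks. SPI1 (PU.1) is an ETS transcription factor of myeloid and B cells whose level normally falls as erythroid cells mature, and its forced expression blocks erythroid differentiation. Genes used in nearly all mammalian cells mostly start at promoters rich in CpG dinucleotides, while many genes restricted to one tissue start at promoters poor in them.

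Totals per library ran from 29964576 to 38217654 counts in model 1, so that 3 counts corresponded to between 0.0785 and 0.1001 CPM. This is about the upper 95% limit of the expected count where 0 counts were seen. Fanca itself was at 27.7 to 84.4 CPM in the TgSpi1FA+/+ libraries, at 0.594 to 2.34 CPM in the TgSpi1FA-/- preleukaemic libraries and at 0.971 to 1.73 CPM in the leukaemic ones. The libraries of preleukemic_445 and preleukemic_479 were far more alike than any other pair within a group of model 1. Their chi-square was 9.18 times its degrees of freedom, against 126 to 411 times. In a second count table of the same mice this pair was at 390 times, beside 438 to 826 times for the other pairs within a group. Leaving out both raised the number of genes that met the rule from 23 to 38. All 16 erythroid markers were detected at 1 CPM or more in the leukaemic libraries, at a summed 3484 to 5382 CPM, below the 6454 to 7969 CPM of the preleukaemic libraries. Several marker lists of other cell types stood higher in the leukaemic than in the TgSpi1FA-/- preleukaemic libraries, and others overlapped or were lower. The summed level was 402 to 435 against 65.2 to 89.7 CPM for 9 megakaryocyte genes, 17.0 to 1289 against 0.433 to 2.16 CPM for 8 fibroblast and stromal genes, 34.4 to 157 against 18.3 to 59.0 CPM for 8 endothelial genes, 3.80 to 13.1 against 0.0866 to 0.156 CPM for 9 epithelial genes, 0.777 to 15.4 against 0.188 to 0.234 CPM for 7 muscle genes and 45.7 to 76.1 against 5.57 to 40.9 CPM for 7 mast cell genes, with an overlap in the endothelial list. The 10 stem and progenitor genes overlapped at 1176 to 1260 against 833 to 1187 CPM, and the 9 neural genes had a lower median in leukaemia, 38.4 (18.6 to 139) against 136 CPM (116 to 174). Against the TgSpi1FA+/+ preleukaemic libraries the epithelial (up to 5.14 CPM), endothelial (up to 88.2 CPM), mast cell (up to 210.1 CPM), stem and progenitor (up to 1239 CPM) and neural (59.8 to 84.1 CPM) lists overlapped with leukaemia. The megakaryocyte list reached 277 CPM in them. Myeloid genes were at a summed 0.577 to 3.25 CPM in leukaemia. This overlapped with the TgSpi1FA-/- preleukaemic libraries (0.0289 to 0.601 CPM) and with the TgSpi1FA+/+ ones (1.41 to 2.69 CPM). Of the 12 myeloid genes 2 reached 1 CPM in a leukaemic library, 0 in a TgSpi1FA-/- and 1 in a TgSpi1FA+/+ preleukaemic library. Itgam, Cebpe, Adgre1 and Csf3r were at 0 counts in the leukaemic libraries, and lymphoid genes at or below 0.341 CPM. None of the 23 genes is on any of these lists, and the part of other cell types in their levels was not tested.

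The promoters of 6 of the genes are shown because they span what the group shares in sequence, from the window with the most CpG dinucleotides to the one with the fewest. RefSeq held a window of 300 bases, from 250 before to 50 after an annotated transcription start (GRCm38.p6), for 19 of the 23 genes. Dennd3, Fam92a, Lysmd2 and Repin1 had none. Where a gene had several windows the one with the most CpG was taken, and the same was done for all other genes. Sequences run 5′ to 3′ on the strand of the gene, and capitals mark each CpG.
Nfil3, chr13:52980990-52981289, minus strand: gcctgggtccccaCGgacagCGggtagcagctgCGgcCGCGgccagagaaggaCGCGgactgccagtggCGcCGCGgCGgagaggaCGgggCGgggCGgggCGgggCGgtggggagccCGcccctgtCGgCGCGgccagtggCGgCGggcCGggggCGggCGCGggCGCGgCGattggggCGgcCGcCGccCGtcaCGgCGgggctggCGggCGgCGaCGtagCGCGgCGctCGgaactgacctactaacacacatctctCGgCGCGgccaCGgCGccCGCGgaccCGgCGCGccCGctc
Sdc3, chr4:130792287-130792586, plus strand: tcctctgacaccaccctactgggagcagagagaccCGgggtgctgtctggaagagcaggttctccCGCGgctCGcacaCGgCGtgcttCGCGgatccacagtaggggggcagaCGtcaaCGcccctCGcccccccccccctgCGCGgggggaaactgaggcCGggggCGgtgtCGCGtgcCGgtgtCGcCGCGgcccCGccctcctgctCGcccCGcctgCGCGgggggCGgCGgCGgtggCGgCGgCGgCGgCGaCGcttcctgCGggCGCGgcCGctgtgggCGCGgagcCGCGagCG
Dapk1, chr13:60601961-60602260, plus strand: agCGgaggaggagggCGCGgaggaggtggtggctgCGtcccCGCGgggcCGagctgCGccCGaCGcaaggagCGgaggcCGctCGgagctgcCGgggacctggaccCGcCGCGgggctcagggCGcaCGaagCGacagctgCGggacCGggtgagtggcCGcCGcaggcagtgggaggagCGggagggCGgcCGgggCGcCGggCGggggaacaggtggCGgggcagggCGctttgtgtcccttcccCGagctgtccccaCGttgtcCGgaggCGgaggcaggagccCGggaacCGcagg
Cep126, chr9:8134397-8134696, minus strand: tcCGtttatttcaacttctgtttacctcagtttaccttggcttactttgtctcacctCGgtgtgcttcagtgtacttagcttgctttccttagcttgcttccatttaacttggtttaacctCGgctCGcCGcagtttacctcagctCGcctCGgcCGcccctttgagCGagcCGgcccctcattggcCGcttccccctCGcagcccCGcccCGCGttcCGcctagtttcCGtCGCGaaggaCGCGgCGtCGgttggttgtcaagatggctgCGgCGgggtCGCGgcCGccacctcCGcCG
Zfp334, chr2:165388210-165388509, minus strand: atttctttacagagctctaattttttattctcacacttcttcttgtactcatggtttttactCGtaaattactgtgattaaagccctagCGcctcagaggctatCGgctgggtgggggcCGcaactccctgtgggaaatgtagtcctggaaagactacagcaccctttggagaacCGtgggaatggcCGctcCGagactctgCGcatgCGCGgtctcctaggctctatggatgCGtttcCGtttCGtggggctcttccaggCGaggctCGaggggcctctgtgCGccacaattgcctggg
Lima1, chr15:99820100-99820399, minus strand: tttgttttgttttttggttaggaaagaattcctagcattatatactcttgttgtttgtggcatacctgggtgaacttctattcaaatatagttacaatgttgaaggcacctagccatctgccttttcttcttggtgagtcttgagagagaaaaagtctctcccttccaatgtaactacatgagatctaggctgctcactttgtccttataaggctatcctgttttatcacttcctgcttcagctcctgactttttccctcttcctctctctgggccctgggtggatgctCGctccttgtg
Of these, Nfil3 encodes a basic leucine zipper repressor, Sdc3 a cell surface heparan sulphate proteoglycan, Dapk1 a calmodulin-regulated kinase of cell death pathways, Cep126 a centrosomal protein, Zfp334 a zinc finger protein and Lima1 an actin-binding LIM protein. The Nfil3 window held 54 CpG and the Lima1 window 1. The Lima1 window lies well inside the gene, whose annotated 5′ end on the minus strand is at 99875456. It therefore stands for an internal start and not for the outermost promoter. The windows of Hip1 and Slc12a7 also lie well inside those genes.

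CpG-dense promoters were common among the genes. The median window held 27 CpG (range 1 to 54, n = 19), against 9 in 2284 other protein-coding genes that were also silent in all 7 preleukaemic libraries and 24 in 7149 protein-coding genes at 1 CPM or more in all 10 libraries. At least 20 CpG were found in 12 of 19 windows (63.2%), in 25.7% of those of the other silent genes and in 66.0% of those of the expressed genes. Of the silent genes that reached 1 CPM in at least 1 leukaemic library without being in the group, 52.4% of 231 windows held 20 CpG or more. The GC content of the median window was 69.3% in the group, 55.7% in the other silent genes and 62.3% in the expressed genes.

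**Figure D1:**
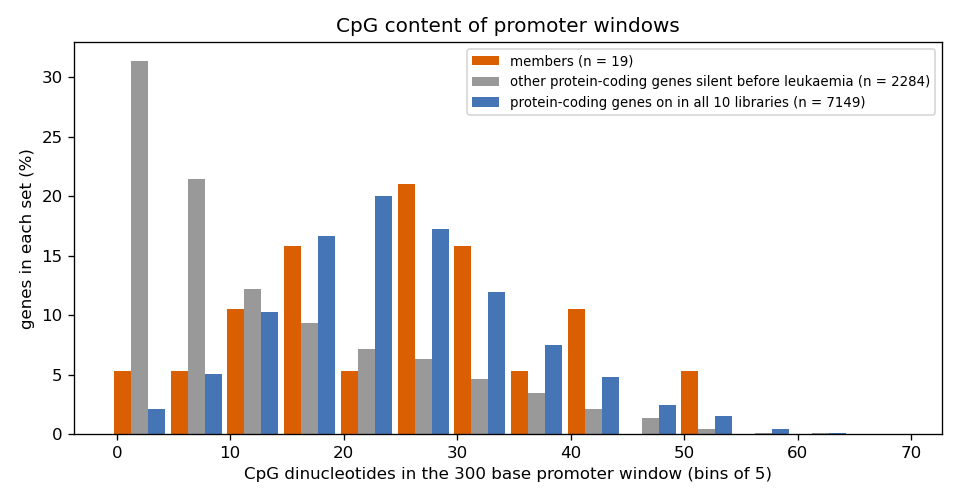
Number of CpG dinucleotides in the 300 base promoter window (x axis, bins of 5) as the percentage of genes in each set (y axis), for the 19 genes with a window (orange), 2284 other protein-coding genes silent in all 7 preleukaemic libraries of model 1 (grey) and 7149 protein-coding genes at 1 CPM or more in all 10 libraries (blue). The grey bars are tallest below 10 CpG, while the orange and blue bars lie mostly between 15 and 35.

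A search for short motifs on both strands of the same windows gave the following shares. GGGCGG, the core of the SP1 site, was in 15 of 19 windows (78.9%), in 40.9% of the other silent genes, in 66.2% of those among them that reached 1 CPM in a leukaemic library, in 71.2% of the expressed genes and in 35.7% of all 32851 windows in the table. AGATAA, a motif of GATA factors, was in 1 window (5.26%), that of 1700010I14Rik. In the other silent genes, those among them that reached 1 CPM in leukaemia and the expressed genes its share was 9.9%, 3.90% and 5.04%. It was in 11.2% of all windows. TCAAAG, a TCF/LEF motif, was in those of Shb, Cep126 and Maged2 and in 16.0% of all windows, and CACGTG, an E-box, in those of P2ry2 and Slc12a7 and in 7.15% of all windows. No motif searched contains another, and a match describes the window and is no sign of binding. GGGCGG itself holds a CpG, so its share follows CpG content in part by construction.

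The genes lay on 14 chromosomes. The closest pair, Kdelr3 and Dennd3 on chromosome 15, were 5.94 Mb apart, and no chromosome held more than 4.

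In the 7 preleukaemic libraries no gene of the group had more than 3 counts in a library, and Cep126, Maged2, Zfp334, P2ry2 and Tmtc2 had 0 counts in all 7. In the leukaemic libraries single counts ran from 39 to 2074. The summed level of the 23 genes was 61.2 CPM in leukemic_26, 182 CPM in leukemic_28 and 339 CPM in leukemic_39, from between 4 and 15 counts in each preleukaemic library. For the 12 genes with 0 counts in the TgSpi1FA-/- preleukaemic libraries, the leukaemic level was at least 54.7-fold (Alpl) to at least 819-fold (Tmtc2) higher. This took 3 counts over that group as the floor, an approximate 95% limit and not a hard minimum. For the other 11 the ratio ran from 123 (Fnbp1l, 95% counting interval 47.8 to 453) to 926 (Slc12a7, 166 to 36623). These intervals cover counting error only, not the spread between mice or the choice of the genes by these same counts. The rule made the ratios large by construction, so they describe the group and are no test of it.

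The 3 leukaemic cultures did not hold the group at a like level. The paper reported a Kit mutation in the mouse of leukemic_26 and an Nras mutation in those of leukemic_28 and leukemic_39. With so few cultures this cannot be told apart from other differences between the mice, and it was not tested. 19 of the 23 genes were lowest in leukemic_26, beside 43.3% of the 10142 genes at 1 CPM or more in all 3 leukaemic libraries and 83.7% of the silent genes that reached 1 CPM in any of them. 15 were highest in leukemic_39, 7 in leukemic_28 and P2ry2 alone in leukemic_26. The ratio of the highest to the lowest leukaemic value had a median of 5.92 (range 1.77 to 35.0), against 1.47 over those 10142 genes. These were matched neither for level nor for silence before leukaemia, so the contrast does not show the group to be unusually uneven. Of 8581 genes silent before leukaemia, 66 reached 1 CPM in leukemic_26, 193 in leukemic_28 and 258 in leukemic_39. 97 did so in leukemic_28 and leukemic_39 but not in leukemic_26, 14 in leukemic_26 and leukemic_28 alone and 1 in leukemic_26 and leukemic_39 alone. The mirror rule, at least 1 CPM in all 7 preleukaemic and at most 0.1 CPM in all 3 leukaemic libraries, was met by 2 genes.

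**Figure D2:**
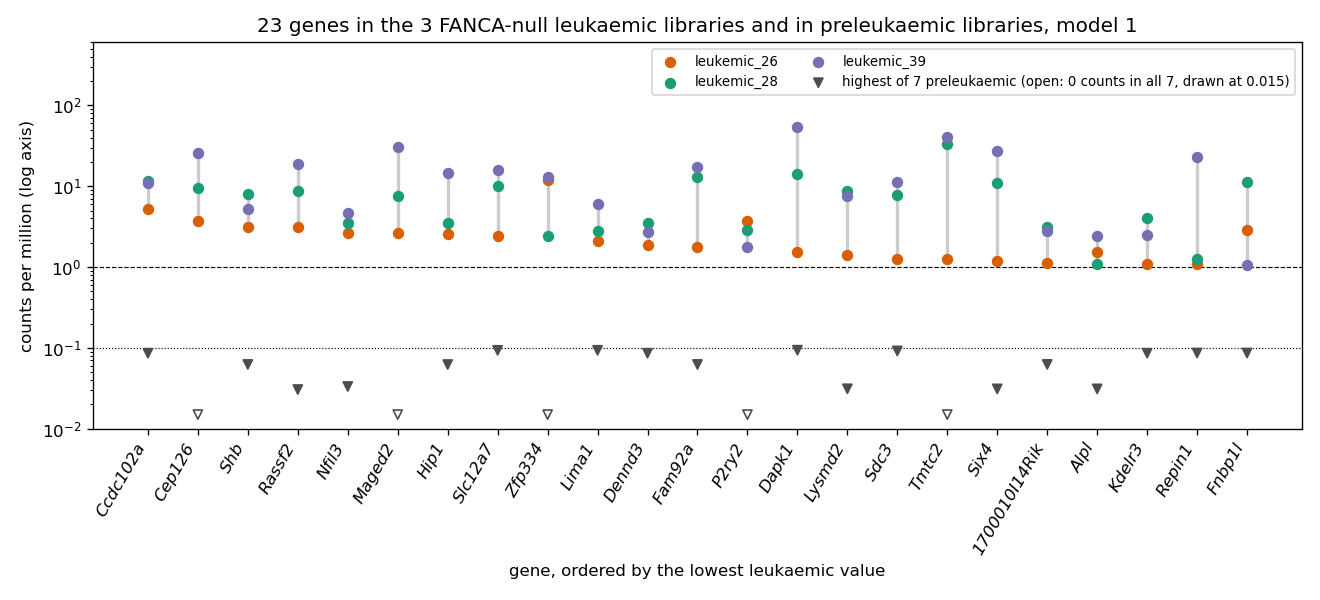
CPM on a log axis (y) for each of the 23 genes (x, ordered by lowest leukaemic value) in the leukaemic libraries leukemic_26 (orange), leukemic_28 (green) and leukemic_39 (purple), with grey lines joining them and grey triangles for the highest of the 7 preleukaemic libraries. All coloured points lie at or above the dashed line at 1 CPM and all triangles below the dotted line at 0.1 CPM as the rule required, and orange is the lowest point for 19 genes.

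Grouped by what their products are known to do, a grouping made after the names were seen, 7 genes act at the cell surface or in signalling. P2ry2, a G protein-coupled receptor for extracellular ATP and UTP (chr7:100996568-101012866, minus strand), was at 3.75 CPM in leukemic_26, 2.85 in leukemic_28 and 1.76 in leukemic_39. It was the only one of the 23 to be highest in leukemic_26. Sdc3 (chr4:130792537-130826319) was at 1.25, 7.69 and 11.2 CPM in the same order, so that leukemic_26 stood well below the other 2. Alpl, the tissue-nonspecific alkaline phosphatase of bone and other tissues (chr4:137741733-137796384), had the lowest mean of the group at 1.70 ± 0.680 CPM (SD, n = 3), with 1.55, 1.10 and 2.44 CPM.

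Slc12a7, a potassium-chloride cotransporter that acts in cell volume control (chr13:73733094-73816754), was at 2.44, 9.94 and 16.0 CPM. Shb, an SH2 adaptor downstream of receptor tyrosine kinases (chr4:45423278-45532470), was at 3.16, 8.01 and 5.27 CPM. Rassf2, a Ras-association domain protein of the tumour suppressor type (chr2:131989415-132030258), was at 3.14, 8.63 and 18.6 CPM. Dapk1 (chr13:60601947-60763191) showed the widest spread of all 23, at 1.55 CPM in leukemic_26, 14.1 in leukemic_28 and 54.3 in leukemic_39, a 35.0-fold range. It was also the gene nearest the preleukaemic limit, at up to 0.0938 CPM.

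8 genes act on membranes, the cytoskeleton or the secretory pathway. Tmtc2, an endoplasmic reticulum membrane protein (chr10:105187663-105574451), had the highest mean, 24.97 ± 20.87 CPM (SD, n = 3), made of 1.25 CPM in leukemic_26, 33.2 in leukemic_28 and 40.5 in leukemic_39. Cep126 (chr9:8076461-8134294) was at 3.75, 9.55 and 25.7 CPM, and Fam92a, a BAR domain protein tied to cilia (chr4:12153409-12172015), at 1.78, 13.0 and 17.1 CPM. All 3 were lowest in leukemic_26 and highest in leukemic_39.

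Hip1, an endocytic adaptor that binds clathrin and actin (chr5:135406531-135545120), was at 2.58, 3.48 and 14.4 CPM. Lima1 (chr15:99778470-99875456) was at 2.11, 2.80 and 5.97 CPM. Fnbp1l, an F-BAR protein of actin assembly (chr3:122538719-122619715), stood apart with its high value in leukemic_28, 11.2 CPM, beside 2.86 in leukemic_26 and 1.07 in leukemic_39. Dennd3, an exchange factor for a Rab GTPase (chr15:73512560-73572242), was among the most even of the group at 1.86, 3.48 and 2.70 CPM. Kdelr3, a receptor that returns proteins to the endoplasmic reticulum (chr15:79516411-79527739), was at 1.08, 4.03 and 2.46 CPM.

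4 genes encode DNA-binding proteins. Zfp334 (chr2:165374264-165388259) was high in leukemic_26 and leukemic_39, at 11.8 and 12.9 CPM, and low in leukemic_28 at 2.43 CPM, and its 11.8 CPM was the highest value of any of the 23 in leukemic_26. Six4, a homeobox factor of the sine oculis family (chr12:73099609-73113456), was at 1.19, 10.8 and 27.5 CPM. Nfil3 (chr13:52967209-52981073) had the smallest spread, 2.66, 3.53 and 4.72 CPM, a ratio of 1.77. Repin1, a zinc finger protein (chr6:48593883-48599082), was near the limit in leukemic_26 and leukemic_28, at 1.08 and 1.26 CPM, and at 23.1 CPM in leukemic_39.

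The other 4 fell into no such group. Ccdc102a, a coiled-coil protein (chr8:94902869-94918098), had the highest minimum of the 23 at 5.22 CPM in leukemic_26, with 11.7 in leukemic_28 and 10.8 in leukemic_39. Maged2, of the MAGE family (chrX:150806370-150814345), was at 2.61, 7.64 and 30.2 CPM, and Lysmd2, a LysM domain protein (chr9:75625741-75637771), at 1.42, 8.61 and 7.47 CPM. The gene model 1700010I14Rik (chr17:8988333-9011949) was at 1.138, 3.17 and 2.83 CPM. Positions are those of the genes in GENCODE M21 (GRCm38). Per kilobase of annotated exon, the mean leukaemic level ran from 0.408 CPM per kb in Fnbp1l to 4.17 in Maged2, with Lysmd2 at 3.78 and Ccdc102a at 3.70.

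At the limits the choice was narrow. Fnbp1l and Kdelr3 were the last genes inside the leukaemic limit, with lowest values of 1.07 and 1.08 CPM, and Syt7 and Ptprf the first outside it at 0.971 and 0.917 CPM. Dapk1 and Slc12a7 were just inside the preleukaemic limit, with highest values of 0.0938 and 0.0935 CPM, and Gpsm1 and Axl just outside at 0.1001 and 0.1225 CPM.

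The nearest expressed gene on each side of each of the 23 was compared in the same libraries (mean of 1 CPM or more in the leukaemic or the TgSpi1FA-/- preleukaemic libraries, log2 ratio of means with 0.1 CPM added). Of these 46 neighbours 28 differed by less than 2-fold, 16 were at least 2-fold higher in leukaemia (34.8%) and 2 at least 2-fold lower, beside 17.8% higher and 9.17% lower among all 11841 expressed genes. 12 neighbours of 12 different genes were at least 8-fold higher (26.1%), against 8.14% of all expressed genes. These ratios use means, and the lowest leukaemic value was 0 CPM for Tmod2, 0.139 for Tro, 0.183 for Ctla2a and 0.444 for Arhgef17. The others of these 12 were at 1 CPM or more in every leukaemic library. Not all neighbours lay close, as the distance reached 5108 kb (Jrkl, beside Cep126). Within 100 kb lay 28 of the 46 neighbours and 8 of these 12. The largest log2 ratio was 8.26 in Pde10a, a phosphodiesterase 1.69 kb from 1700010I14Rik, which had a mean of 37.0 CPM in the leukaemic and 0.0207 CPM in the TgSpi1FA-/- preleukaemic libraries. Slc23a2, a vitamin C transporter 22.2 kb from Rassf2, had a log2 ratio of 7.05, and Cers5, a ceramide synthase 5.59 kb from Lima1, one of 4.94. By contrast Mnat1, 10.3 kb from Six4, had a log2 ratio of 0.73. These comparisons use the libraries that chose the genes and were not tested, and 10 of the 23 genes overlap another annotated gene, 8 of them on the same strand.

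A second deposited table counted 7 of the same mice again, to totals of 35497594 to 171572736, and the group was less sharp there. 22 of the 23 genes were at 1 CPM or more in leukemic_28 and 21 in leukemic_39, but only 12 in leukemic_26. 16 stayed at or below 0.1 CPM in the 4 TgSpi1FA+/+ preleukaemic libraries, and 6 (26.1%) met both limits (Ccdc102a, Rassf2, Hip1, Slc12a7, Zfp334 and 1700010I14Rik). The lowest leukaemic value was still above the highest preleukaemic value in 21 of 23. In that table, which lacks the TgSpi1FA-/- preleukaemic libraries, 38 genes met both limits outside the families left out, of which the 6 make up 15.8%. These are the same mice and no independent evidence, and 5 of the 7 libraries matched their own number best in the first table while preleukemic_445 and preleukemic_479 did not.

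In all 3 leukaemic libraries the genes tended to be lower in the second table than in the first. The ratio of the second to the first CPM had a median of 0.532 over the 23 genes in leukemic_26 (range 0.0412 to 2.65), against 1.11 over 1715 genes at 1 to 5 CPM. It was 0.918 against 1.21 in leukemic_28 and 0.681 against 1.23 in leukemic_39. In these 2 the median gene of the group was above that band, at 7.69 and 11.2 CPM. Over all genes at 1 CPM or more the median ratio was 0.899 in leukemic_26, 0.928 in leukemic_28 and 0.873 in leukemic_39. The group thus did not stand apart from expressed genes in leukemic_28. Its genes were also chosen by their values in the first table. The second value was the lower one for 20 of the 23 genes in leukemic_26, 13 in leukemic_28 and 19 in leukemic_39. In leukemic_26, Lysmd2 was at 0.0583 CPM in the second table against 1.42 in the first, Fam92a at 0.140 against 1.78, Nfil3 at 0.152 against 2.66 and Tmtc2 at 0.221 against 1.25. Dapk1 went the other way, at 4.11 against 1.55 CPM. Among preleukaemic libraries Repin1 reached 2.24 CPM in preleukemic_445, more than its 0.734 CPM in the leukaemic culture leukemic_26, and Dapk1 0.922 CPM in preleukemic_479.

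**Figure D3:**
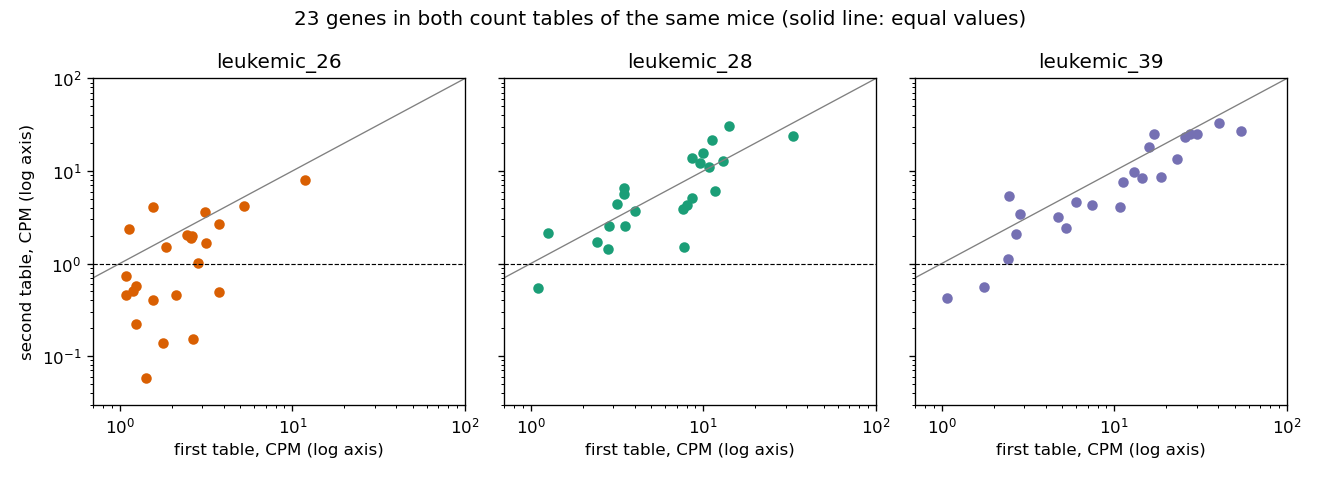
CPM of the 23 genes in the first (x, log axis) and second (y, log axis) count table of the same mice, 1 panel per leukaemic mouse, with the solid line at equal values and the dashed line at 1 CPM in the second table. In leukemic_26, 11 of the 23 points lie below the dashed line, while 1 does in leukemic_28 and 2 do in leukemic_39.

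Model 2 asked whether the genes are also expressed in leukaemia with intact Fanca. All 23 were in its table, whose libraries held 37726753 to 40514205 counts, and none was at 1 CPM or more in all 3 leukaemic libraries. 5 reached 1 CPM in at least 1 leukaemic library (Nfil3, Lima1, Dapk1, 1700010I14Rik and Kdelr3) and 10 were at or below 0.1 CPM in all 3, with 8 at 0 counts in all 3. 8 reached 1 CPM in at least 1 preleukaemic library, the same 5 with Ccdc102a, Shb and Maged2. This rested on 1 culture, since without preleukemic_633 only 2 (Lima1 and 1700010I14Rik, both in preleukemic_812) reached 1 CPM in a preleukaemic library. Over any of the 7 libraries 8 of 23 (34.8%) reached 1 CPM, beside 3.62% of 5134 other genes silent in the preleukaemic libraries of model 1 and 14.6% of 261 that also reached 1 CPM in a leukaemic library of that model. In all 3 leukaemic libraries 1.05% of the 5134 and 0.383% of the 261 did so. In at least 1 of them 21.7% of the group did, beside 2.59% and 3.83%. At or below 0.1 CPM in all 3 were 43.5% of the group, beside 75.6% and 73.6%. At 0 counts in all 3 were 34.8%, beside 31.5% and 41.4%. In at least 1 preleukaemic library 34.8% reached 1 CPM, beside 2.61% and 12.3%. The 23 genes are all protein-coding, while the 5134 and the 261 were not limited to such genes. Of the 8581 genes silent before leukaemia in model 1, 3108 outside the group are protein-coding. Gene type was thus not matched in these contrasts. No gene in the whole table met the rule of model 1 when it was applied to model 2.

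One preleukaemic culture stood apart in the number of genes detected. preleukemic_633 had at least 1 count for all 23 genes, beside 3 to 11 genes in the other 6 libraries, and it was the highest of the 7 for 12 genes. Its summed level was 16.4 CPM, against 0.786, 5.99 and 0.0782 CPM in preleukemic_663, preleukemic_812 and preleukemic_837 and 3.95, 22.1 and 3.01 CPM in the leukaemic cultures leukemic_601, leukemic_606 and leukemic_921. The sum in leukemic_606 was mostly Dapk1 at 12.5 CPM and Lima1 at 5.59 CPM. Other genes silent in model 1 had a count in preleukemic_633 in 40.01% of 5134 cases, against 34.1% to 42.2% in the other 6 libraries, and for those on in a leukaemic library of model 1 the share was 61.7% of 261 against 22.2% to 34.5%. Without preleukemic_633, 5 in place of 8 genes reached 1 CPM.

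**Figure D4:**
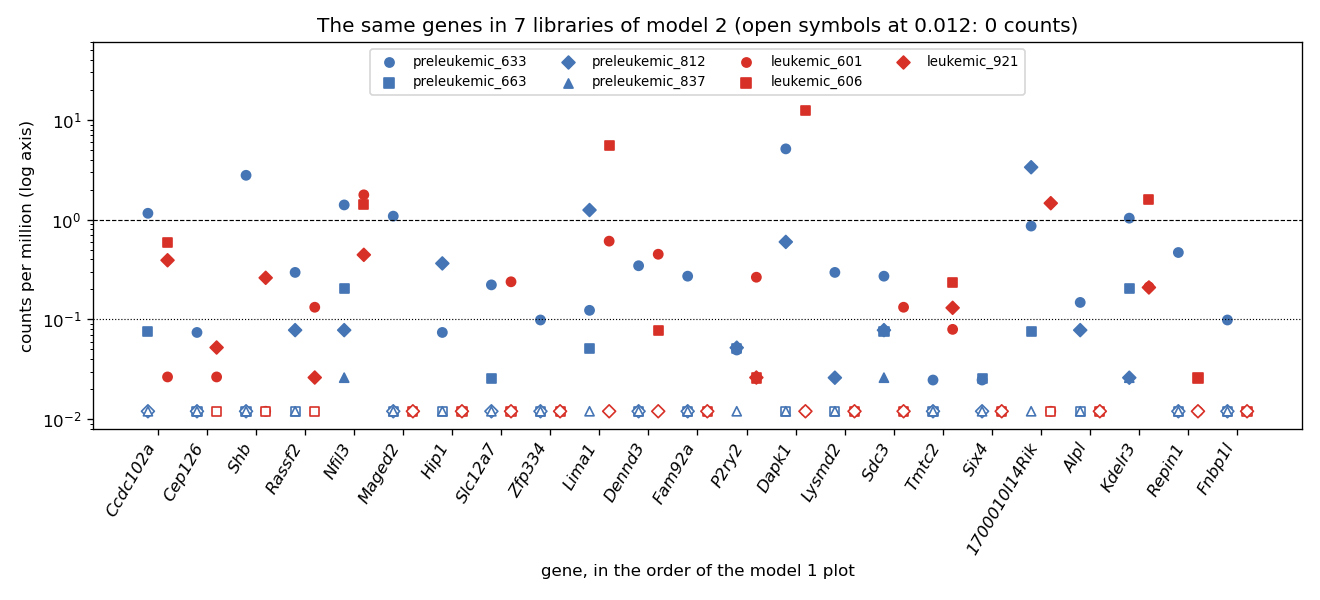
CPM on a log axis (y) for the 23 genes (x, in the order of the model 1 plot) in model 2, with preleukaemic libraries in blue and leukaemic libraries in red, 1 symbol shape per mouse, and open symbols at 0.012 for 0 counts. The blue circles of preleukemic_633 are filled for every gene, the highest point is Dapk1 in leukemic_606 at 12.5 CPM, and no gene has all 3 red symbols above the dashed line at 1 CPM.

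Dapk1 was at 5.13, 0, 0.599 and 0 CPM in the preleukaemic cultures (preleukemic_633, preleukemic_663, preleukemic_812 and preleukemic_837) and at 0, 12.5 and 0 CPM in the leukaemic ones (leukemic_601, leukemic_606 and leukemic_921), so that both groups held silent and expressing cultures. Nfil3 was the most evenly detected, at 1.41, 0.203, 0.0781 and 0.0261 against 1.78, 1.42 and 0.445 CPM. Lima1 was at 0.123, 0.0507, 1.25 and 0 against 0.610, 5.59 and 0 CPM.

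The test of leukaemic against preleukaemic libraries in model 2 was the only one that the choice of genes did not use (edgeR quasi-likelihood, a gene being called at 1.5-fold or more with an adjusted p under 0.05). 0 of 12970 genes tested were called (0% as background), 2587 had an unadjusted p under 0.05 (19.9%, made of 8.59% higher and 11.4% lower in leukaemia), and DESeq2's Wald test called 470. Only 5 of the 23 genes had enough counts to be tested, and 0 of these had an unadjusted p under 0.05 or were called. DESeq2 gave an adjusted p to 5 of the 23 (Ccdc102a, Nfil3, Lima1, 1700010I14Rik and Kdelr3), the smallest being 0.454, and none to the other 18. The log2 fold change was 1.46 ± 1.18 in Nfil3 (SE, adjusted p = 0.528 by edgeR), 2.47 ± 1.88 in Lima1 (adjusted p = 0.496), 1.48 ± 2.51 in Dapk1 (adjusted p = 0.776), 0.13 ± 1.67 in Ccdc102a (adjusted p = 0.973) and -1.05 ± 2.09 in 1700010I14Rik (adjusted p = 0.813), with 3 leukaemic and 4 preleukaemic cultures. Without preleukemic_633 the log2 fold change of Nfil3 was 3.52 ± 0.88 (SE, unadjusted p = 0.00556, adjusted p = 0.271 by edgeR). In the fit with all cultures the errors are wide enough to hold large changes in either direction. Each SE was computed as the absolute log2 fold change divided by the square root of the F statistic. Groups overlapped in all 5, where 9.44% of tested genes had every leukaemic value above and 10.2% every value below the preleukaemic ones.

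Among all 23, Tmtc2 alone had every leukaemic value of model 2 above every preleukaemic one, at 0.0795, 0.233 and 0.131 CPM against 0.0247, 0, 0 and 0 CPM, as did 6.44% of the 23712 genes with a count. It was singled out after its values were seen. Without a filter on low counts edgeR gave it a log2 fold change of 3.99 ± 1.23 (SE, unadjusted p = 0.00864, adjusted p = 0.247). Its highest value in model 2, 0.233 CPM, was below its lowest leukaemic value in model 1, 1.25 CPM in leukemic_26. Cep126, Zfp334, Six4 and Fnbp1l, by contrast, stayed at or below 0.1 CPM in all 7 libraries of model 2. They make up 17.4% of the 23, beside 64.7% of the 5134 other genes silent before leukaemia in model 1. Those 5134 were not limited to protein-coding genes.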

How the data were processed

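Poly(A) RNA of cultured erythroid blasts was sequenced from 17 mice. The authors deposited raw counts per Ensembl gene, 1 column per mouse. The submitters' processing notes name bcl2fastq 2.17.1.14, STAR 2.5.3a, HTSeq 0.6.1p1 and the builds mm10 and GRCm38. The counting mode and annotation version are not given in the sources used here, so reads in overlapping genes could be assigned in more than one way. 3 tables of counts were used: the 10 libraries of model 1, a second table of 7 of its mice, and the 7 libraries of model 2.

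CPM was each count divided by its library total. The group of genes and all lists were chosen with earlier results of these data known. The members named with values include those with the highest lowest leukaemic CPM, the most and least even, those nearest each limit, those highest in model 2 and those with the smallest p there. Roles were assigned from gene names afterwards, because 12 of 23 matched none of the symbol patterns used for classes.

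Model 2 was tested with edgeR 4.0.16 (quasi-likelihood, TMM, filterByExpr, Benjamini-Hochberg over all genes tested), with DESeq2 1.42.0 as an alternative, in R 4.3.3, after a check on simulated data. Promoter windows came from RefSeq (GRCm38.p6) and gene positions from GENCODE M21, which held 99.8% of the gene identifiers. Nothing says that cultures were independent beyond coming from different mice, and p-values measure the spread between these cultures. Counts are not unique molecules, so counting intervals are lower limits of the error.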

Additional observations from a re-analysis of the deposited data

Results flagged for a closer look

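Within the 4 preleukaemic cultures of model 2, and within the 4 TgSpi1FA+/+ preleukaemic cultures of the second table, a value was marked when its gap to the nearest of the other 3, as a share of the whole range, exceeded Dixon's 95% critical value. This was asked of every gene of the group that reached 1 CPM in such a set of 4, of the summed CPM and of the number of genes with a count, 13 comparisons in all, of which 7 were marked. Chance marks about 1 in 20 groups that were not chosen for their values, and that rate does not apply here, since a gene entered only when 1 of 4 mostly low values reached 1 CPM and the mice of the second table had been held to 0.1 CPM in the first. 5 of the 7 were preleukemic_633 in model 2. Dapk1, the calmodulin-regulated death kinase, was at 5.13 CPM there with 0.599 as the nearest value, and Shb, the SH2 adaptor, at 2.79 CPM with 0 in the other 3. The repressor Nfil3 was at 1.41 CPM (nearest 0.203), Ccdc102a at 1.16 (nearest 0.0761) and Maged2 at 1.09 (0 in the other 3). Lima1, the actin-binding protein, was marked in preleukemic_812 at 1.25 CPM with 0.123 as the nearest value. In the second table Repin1 was at 2.24 CPM in preleukemic_445 with 0.0323 as the nearest value, while preleukemic_445 had no more than 3 counts of any gene of the group in the first table. These values share libraries and are not independent of each other.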

How the results depend on the processing

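No paired analysis was possible because mouse numbers are never shared between groups. The number of genes meeting the rule depended on its limits: 10 at a preleukaemic maximum of 0.05 CPM, 39 at 0.2 CPM, 41 at a leukaemic minimum of 0.5 CPM, 10 at 2 CPM and 38 without both preleukemic_445 and preleukemic_479, an alternative chosen after seeing the data. Leaving out 1 library gave 24 to 117 genes, with 117 without leukemic_26, 40 without preleukemic_138 and 36 without leukemic_39, and the rule then asks less by construction. Taking the second table for its 7 mice and the first for the TgSpi1FA-/- preleukaemic libraries, also an alternative chosen after seeing the data, gave 22 genes, 6 of them shared with the 23.

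The number at 1 CPM or more in any library of model 2 was 5 to 8 when 1 library was left out, 5 only without preleukemic_633. The same rule in model 2 gave 3 genes with 0.2 CPM as the preleukaemic maximum, 1 with 0.5 CPM as the leukaemic minimum and 0 to 3 without 1 library (3 without leukemic_921, 2 without leukemic_601), none of them in the group. DESeq2's Wald test called 470 genes of model 2, and edgeR without 1 library called 0 to 1, the 1 without leukemic_601 or leukemic_921. Of the 23, edgeR tested all 23 without a filter on low counts and 1 to 7 in its other settings, and none of those tested was called. Signs turned without 1 library, as the log2 fold change of Ccdc102a became -0.20 without preleukemic_663, -0.25 without preleukemic_812, -0.28 without preleukemic_837, -0.49 without leukemic_606 and -0.02 without leukemic_921, that of Lima1 -0.29 without leukemic_606 and that of Dapk1 -8.83 without leukemic_606. Their highest values without 1 library were 0.70, 3.05 and 2.10. Those of 1700010I14Rik ran from -8.46 to -0.47 and those of Nfil3 from 1.07 to 3.52, the latter without preleukemic_633. These ranges cover the fits in which the gene had enough counts, 7 of 7 for Nfil3, 6 for Ccdc102a and Lima1 and 5 for Dapk1 and 1700010I14Rik, and Ccdc102a, Dapk1 and 1700010I14Rik had no value without preleukemic_633.

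With 3 counts worth about 0.1 CPM, a preleukaemic level under the limit rests on 0 to 3 counts, and 11 of 23 genes were under 2 CPM in leukemic_26.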
